A study of Homo sapiens with 6 samples.

Results

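The mouse cells of a Drop-seq library amplified for 25 PCR cycles are described here, from a mixture labelled JJN3 and 5TGMG1, a human and a mouse line that the labels call myeloma lines. The 1000 barcodes with the most counts were taken as cells, as many as the label gives, and 590 of these were mouse because at least 90% of their counts lay on mouse transcripts. Of the remaining barcodes, 251 were human by the same rule and 159 were mixed. The library held 323970 barcodes and the 5 matrices of the series 407779. The mouse cells were thus chosen by their total counts and by the mouse share of those counts, so their purity and the mouse transcripts that lead in them are given as a description without a test.

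The cells were captured in droplets on a DolomiteBio Nadia instrument and read by nanopore sequencing, and the labels give no treatment. The study's text spells the mouse line 5TGM1 and names the human line JJN3 in some places and Jurkat, a T cell line, in others, and the name in the labels is used here. The series also held Drop-seq libraries of 30 and 35 cycles, each labelled with 500 cells, and 10X libraries of 30 and 35 cycles, all of the same labelled lines. Every group had 1 library, so no difference between libraries could be set against a spread between replicates and no test was run. Intervals are 95% exact intervals and cover counting error only.

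Myeloma is a cancer of plasma cells, the antibody-secreting cells of the B lineage. In Drop-seq a cell shares a droplet with a bead whose primers carry a cell barcode, which marks every captured RNA of that cell, and a unique molecular identifier (UMI), which marks each molecule. A mixture of species shows how often RNA of different cells ends under 1 barcode, because most transcripts can be assigned to human or mouse by sequence. The matrices list mouse transcripts by Ensembl identifier and do not pair them with gene names, and a mouse annotation was not used here. The transcripts are therefore named by identifier, with the exception of ENSMUST00000034966, which the study's text gives as Rpl4, a protein of the large ribosomal subunit. Markers of plasma cells and of other cell types could not be looked up, so the mouse label rests on the species of the transcripts alone.

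The stored barcodes had 10 bases. The study's text describes bead barcodes made of blocks of a repeated base, and the sources used here do not say how the stored length relates to them. Whether a stored base stands for 1 base or for a block is thus not known. Many mouse barcodes lay 1 base from another. The deepest mouse cell and the 5 largest mouse cells 1 mismatch from it are shown because they carry this pattern. Lower case letters match the deepest barcode and a capital marks the base that differs, with positions counted from the first base of the stored barcode.
Deepest cell: gaagtaatca
Cell of rank 17: Aaagtaatca
Cell of rank 110: gaagtaaCca
Cell of rank 226: gaagtaatAa
Cell of rank 239: Caagtaatca
Cell of rank 270: gaagtaatTa

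The deepest cell held 33160 UMI counts. The cell of rank 17, which differs from it at position 1, held 3304 counts. The cell of rank 110 differs at position 8 and held 1010 counts. These were followed by 562 counts at rank 226, 534 counts at rank 239 and 473 counts at rank 270. In all, 12 of the 1000 cells lay 1 mismatch from the deepest barcode, and 11 of them were mouse. The last, of rank 960, was mixed with 86.2% of its 145 counts on mouse transcripts. Of the 30 barcodes possible at 1 mismatch, 29 were stored somewhere in the library. The library stored 323970 barcodes in all, and the same number around other barcodes was not counted, so how unusual this is was not tested.

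Over all mouse cells, 234 (39.7%) lay 1 mismatch from a cell with more counts, against 66 of the 251 human cells (26.3%). The larger neighbour was mouse for 229 of the 234, human for 1 and mixed for 4. Hence 356 mouse cells had no larger cell 1 mismatch away, and 317 when 1 inserted or lost base was also allowed. The linked cells had a median of 215 counts against 359.5 in the cells with no larger neighbour. A link runs only to a cell with more counts, so linked cells are shallower partly by definition. The linked cells held 20.1% of the counts in mouse cells. A linked cell had a median of 16.3% of the counts of its larger neighbour (quartiles 7.51% and 42.9%, range 0.437% to 96.2%). The differing base was at position 1 in 60 of the 234 cells and at each other position in 15 to 26.

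Linked cells also carried the transcripts of their neighbours. For the 229 with a mouse neighbour, a median of 87.5% of their mouse transcripts were also detected in that neighbour (quartiles 69.0% and 93.8%). The same share against 5 other mouse cells closest in depth to the neighbour had a median of 26.9% (quartiles 18.9% and 35.2%). The share with the neighbour was the higher in 227 of 229 cells, and it was under 50% in 21. Rank 17 shared 95.3% of its 1200 transcripts with the deepest cell and a median of 24.1% with the 5 others, which were all far shallower than the deepest cell. Whether linked cells were separate cells or the same captured RNA under an altered barcode was not tested, and the results below are given with and without them where that changed the value.

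**Figure D1:**
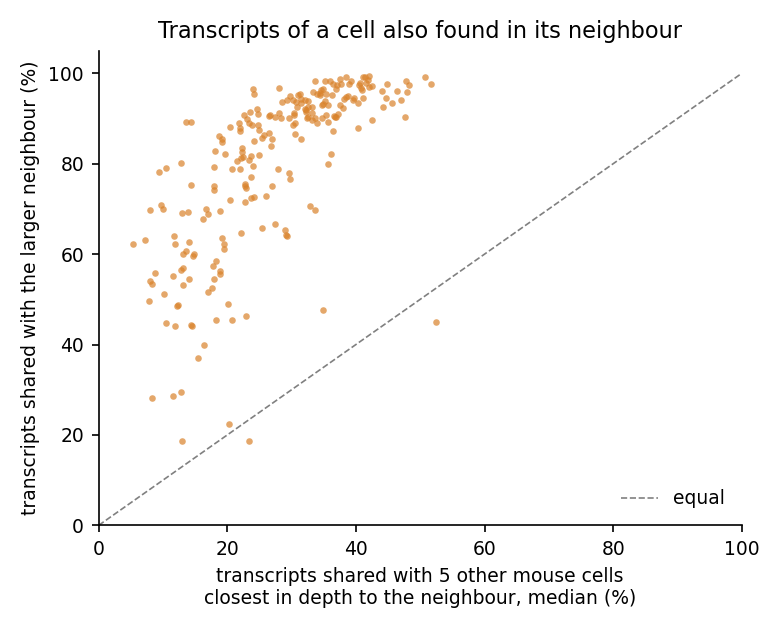
Each of the 229 points is a mouse cell 1 mismatch from a larger mouse cell. The horizontal axis gives the percentage of its transcripts found in 5 other mouse cells closest in depth to that neighbour (median) and the vertical axis the percentage found in the larger neighbour, and 227 points lie above the dashed line of equality.

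The rule cut within a continuous range of depth and of purity. The last barcode taken as a cell had 141 counts and the next had 140. The 3 mouse cells nearest the purity limit had 90.03%, 90.11% and 90.12% of their counts on mouse transcripts, and the 3 barcodes just below it had 89.92%, 89.86% and 89.84%. The median purity of a mouse cell was 96.9%. Mouse cells made up 59% of the cells (55.9% to 62.1%) and 70.2% of those assigned to 1 species (66.9% to 73.2%). Without the cells 1 mismatch from a larger one, of any species, these shares were 53.5% of 665 cells (49.7% to 57.4%) and 65.8% of 541 (61.6% to 69.8%). The study's text describes loading more mouse than human cells for Drop-seq, and the shares were not set against its loading ratio.

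Counts per mouse cell ranged from 141 to 33160, with a median of 282.5 and quartiles of 182.25 and 580.5. Human cells of the same library had a median of 271 and a highest value of 5859. The deepest mouse cell stood apart from the second, which had 8747 counts, and held 8.79% of all counts in mouse cells. The 10 deepest cells together held 21.8% and the 59 deepest held 50.1%. In total the mouse cells held 377141 counts, or 16.3% of the 2311090 in the library. Most of the remainder lay under barcodes not taken as cells, where 64.5% of counts were mouse.

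A mouse cell had a median of 151.5 mouse transcripts detected, between 11 and 4451. Because this number follows depth, each cell was also thinned at random to 200 mouse counts. The 394 mouse cells deep enough then held a median of 132.5 transcripts (quartiles 109 and 151), and 196 cells were too shallow. Human cells treated in the same way held a median of 109 human transcripts (quartiles 83.25 and 132, n = 166, with 85 too shallow). Before thinning the same 394 mouse cells held a median of 204 transcripts and the same 166 human cells 149. At 200 counts the linked mouse cells held a median of 148 transcripts (n = 130) and the others 120 (n = 264), while before thinning these same cells held medians of 200.5 and 204. At that equal depth the counts were thus spread over more transcripts in linked cells. Over all mouse cells without thinning, linked cells had a median of 1.49 counts per detected transcript, against 2.65 in cells without a larger neighbour. That second contrast also carries the difference in depth between these cells. The median of 109 in human cells includes those with a larger neighbour.

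At the other end, 31 mouse cells (5.25%) held under 50 transcripts, with a median of 167 counts and none above 243. Of these cells 1 was linked. Human cells of this kind numbered 21 (8.37%).

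**Figure D2:**
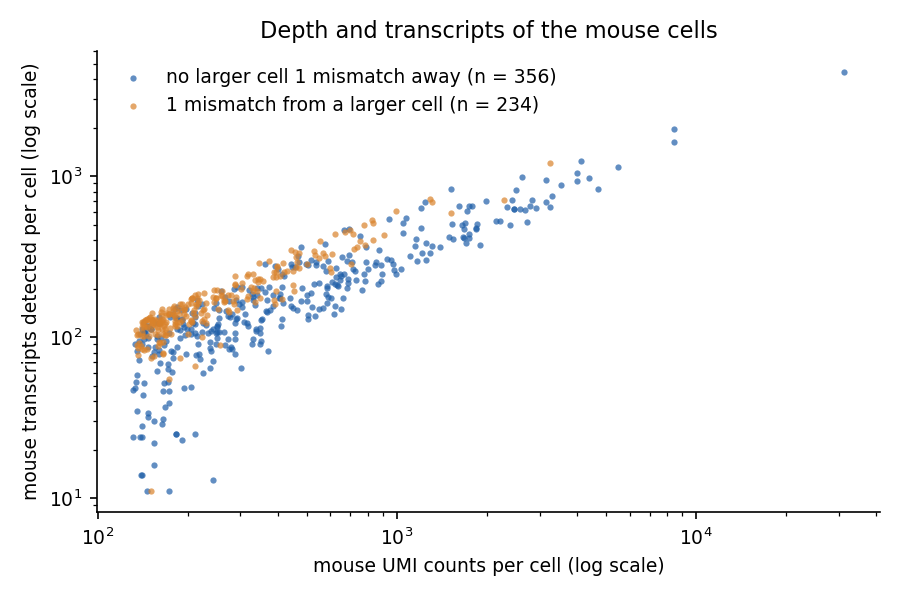
Mouse transcripts detected (vertical, log scale) against mouse UMI counts (horizontal, log scale) for each of the 590 mouse cells, with the 234 cells 1 mismatch from a larger cell in orange and the other 356 in blue. Orange points follow the upper edge of the cloud at a given depth, the deepest cell lies alone at the right, and 31 cells with under 50 transcripts lie below the rest.

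Over the 590 cells, 17207 of the 26582 mouse transcripts listed in the library had at least 1 count, and 4458 of them had 1 count in all. The 484 transcripts with at least 100 counts took 52.5% of the 361738 mouse counts. The 10 most abundant took 10.1% and the 100 most abundant 31.1%. The corresponding shares of human counts in human cells were 3.34% and 19.3%. Summed over cells, mouse counts thus lay more on a few transcripts than human counts did. Within single cells at the equal thinned depth, the number of transcripts went the other way. Its median was 132.5 in mouse cells and 109 in human cells. Some of the most abundant mouse transcripts also had near-equal counts, as described below. Of 133913 pairs of a cell and a transcript with a count, 60.3% had a count of 1, and these held 22.3% of the mouse counts. The 6221 pairs with 10 counts or more held 32.7%, and the highest had 515.

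ENSMUST00000103410 was the most abundant mouse transcript, with 6693 counts or 1.85% of mouse counts (1.81% to 1.89%). It was detected in 527 of the 590 cells (89.3%), and its share of a cell's mouse counts had a median of 1.504% and a range of 0% to 34.8%. In human cells of the library it had a count in 78 of 251 (31.1%). Median total counts were 271 there against 282.5, but human cells were chosen for a low mouse share, with a median of 5.16%. Lower detection of a mouse transcript in them was thus built into the rule and tests nothing. Within the 6884 mouse counts of those human cells its share was 1.79%, and among mouse counts under barcodes not taken as cells it was 1.57%. Both lie close to its share in the mouse cells.

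ENSMUST00000103328 was second, with 6195 counts (1.71%) in 515 mouse cells, and had a count in 72 human cells. ENSMUST00000082421 followed with 4873 counts (1.35%) in 480 mouse cells and a count in 83 human cells. The share of a cell's mouse counts on ENSMUST00000082421 had a median of 1.01% and a highest value of 10.8%. These 3 transcripts had been set as markers of the mouse cells from the same data. All 3 had a count in 440 cells and none had one in 30 cells, and together they took a median of 4.46% of a cell's mouse counts.

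The next transcripts fell off slowly. ENSMUST00000082409 had 3787 counts and ENSMUST00000190277 had 3783, in 426 and 425 cells. ENSMUST00000103418 followed with 2733 counts in 414 cells and ENSMUST00000103525 with 2265 in 371 cells. The transcripts ranked 8 to 20 had between 2123 and 1607 counts, from ENSMUST00000082408 to ENSMUST00000122279, and were detected in 296 to 383 cells. Rpl4 (ENSMUST00000034966) ranked 60, with 708 counts (0.196%) in 195 mouse cells (33.1%) and 12 counts in 11 of the human cells (4.38%). Transcript lengths were not used here, so these are shares of counts and not levels per length.

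Several abundant transcripts rose and fell together from cell to cell, and some were counted almost identically. ENSMUST00000082409 and ENSMUST00000190277 had equal counts in 411 of the 426 cells with either. Joining transcripts whose counts were equal in at least 90% of the cells with either left 393 groups or single transcripts out of 484. Of these 70 were groups, which together held 161 transcripts, with at most 4 in a group. The 20 most abundant transcripts came down to 16 such units. Whether 1 molecule could be counted on more than 1 transcript, of the same or another gene, is not stated for these matrices. The 20 values therefore cannot be taken as 20 independent measurements. Which of these transcripts belong to the same gene was not looked up.

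ENSMUST00000103410 and ENSMUST00000103328 were not equal but nested. In the 527 cells with either, the counts were equal in 323, the first was higher in 199 and the second in 5. The first of ENSMUST00000103418 and ENSMUST00000103525 was likewise higher in 173 of 420 cells, the second in 23, and 224 were equal. ENSMUST00000082408 was higher than ENSMUST00000082407 in 160 of 357 cells and lower in 5.

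For 12 abundant transcripts, each from a different near-equal group, counts were compared across the 590 cells after the count expected from a cell's depth was taken off and the difference scaled by its counting error. Of the 66 pairs, 4 had a Pearson r above 0.2. ENSMUST00000176010 with ENSMUST00000177163 gave 0.98, ENSMUST00000103410 with ENSMUST00000103328 gave 0.98, ENSMUST00000146108 with ENSMUST00000222106 gave 0.93, and ENSMUST00000103418 with ENSMUST00000103525 gave 0.90. In the 356 cells with no larger neighbour the same pairs gave 0.98, 0.98, 0.93 and 0.92. The other 62 pairs lay between -0.13 and 0.18. These correlations share a library and the cells' depths and are a description of 590 cells. None of the 12 transcripts had an r above 0.2 with more than 1 other.

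**Figure D3:**
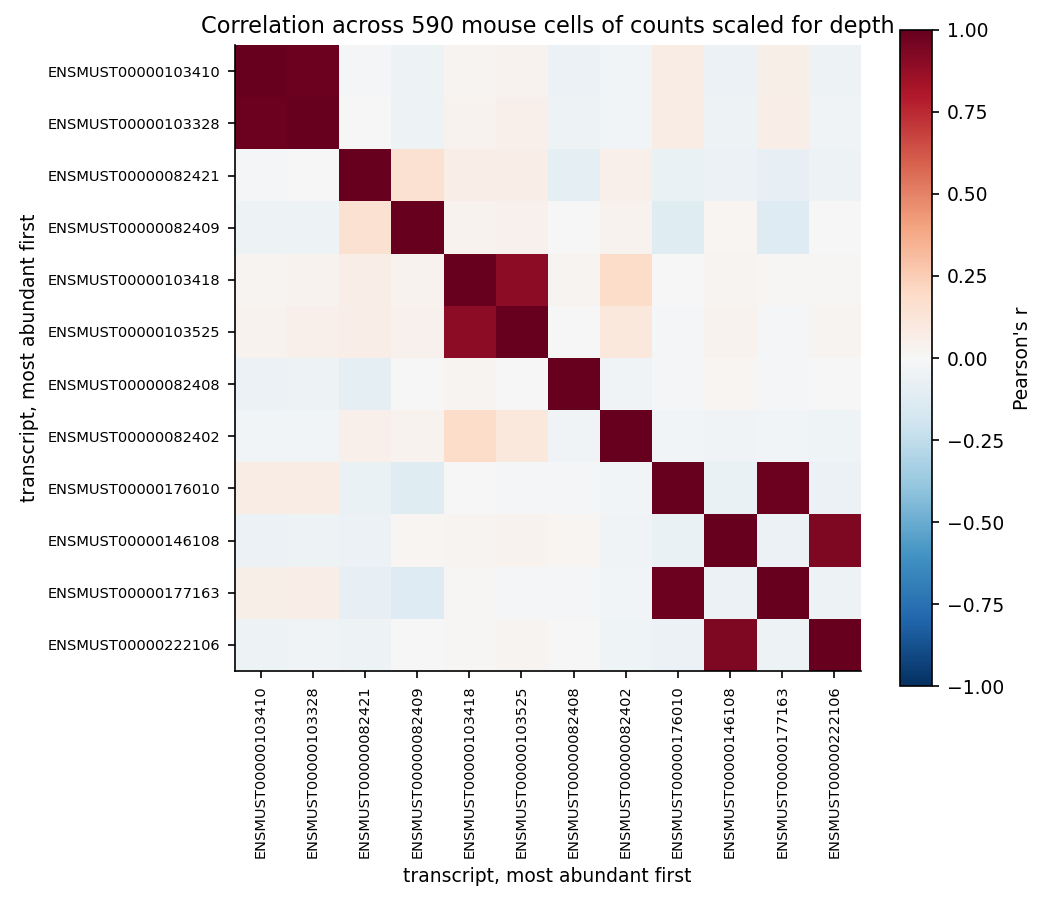
Pearson correlation (colour, from -1 to 1) across the 590 mouse cells between 12 abundant transcripts, after counts were scaled for the depth of each cell. The 4 pairs above 0.2 appear as dark red cells off the diagonal, and the other 62 pairs are pale, between -0.13 and 0.18.

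The counts of nearly every abundant transcript varied between mouse cells by more than counting at the cells' depths would give. The variance between cells was at least 2 times the counting variance for 474 of the 484 transcripts (97.9%), with a median ratio of 5.67 and a range of 1.30 to 19.4. For ENSMUST00000103410 the ratio was 11.1, for ENSMUST00000103328 10.8, for ENSMUST00000082421 9.64 and for Rpl4 (ENSMUST00000034966) 7.66. The background percentage is the same 97.9%, since the 484 transcripts are all that were examined, so a ratio of 2 set no transcript apart. Human transcripts in human cells behaved likewise, with all 170 at or above 2 and a median of 7.31.

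The same spread appeared as missing detection. Each of the 484 transcripts was found in fewer cells than its counts would reach if spread by depth alone, with a median of 0.608 of that number. ENSMUST00000103410 was found in 527 cells where counting alone gave 578, ENSMUST00000082421 in 480 where it gave 562, and Rpl4 in 195 where it gave 293. In human cells the median was 0.458 over 170 transcripts. Whether this reflects cells that differ in expression, or counts of 1 molecule entered several times in a cell, was not tested.

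**Figure D4:**
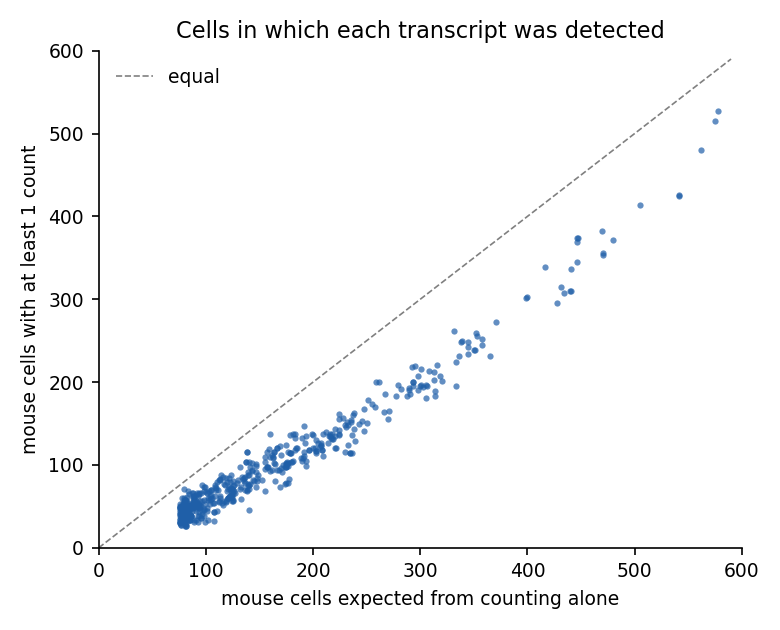
Number of mouse cells with at least 1 count (vertical) against the number that counting alone would give at the cells' depths (horizontal), for each of the 484 transcripts with at least 100 counts. Every point lies below the dashed line of equality, among them ENSMUST00000103410 at 527 cells against 578.

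The 10 transcripts with the largest ratio, from 14.5 to 19.4, were found in few of the cells and had a high count in 1 of them. They had 108 to 308 counts in all, in 29 to 78 cells, and 40 to 46 of those counts lay in a single cell. ENSMUST00000081551 led with a ratio of 19.4, having 145 counts in 34 cells where counting alone gave 101.8, and 44 counts in its highest cell. ENSMUST00000026222 came next with 141 counts in 31 cells and 42 in the highest. ENSMUST00000105230 had 108 counts in 29 cells and 44 in the highest. In none of the 10 was the highest cell the deepest one, which held the highest count of 249 of the 484 transcripts. At the low end ENSMUST00000156007, with 106 counts in 71 cells where counting gave 79.3, had a ratio of 1.30.

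The highest share of ENSMUST00000103410 was found in a shallow cell with few transcripts. The cell of rank 916 had 141 mouse counts on 24 transcripts, with 49 (34.8%) on ENSMUST00000103410 and 48 on ENSMUST00000103328. It had none on ENSMUST00000082421 and had no larger neighbour 1 mismatch away. The same barcode gave ENSMUST00000103410 7 of 31 mouse counts (22.6%) at 30 cycles and 11 of 49 (22.4%) at 35 cycles. The next cells, of ranks 691 and 586, had 19.7% and 14.7% of their mouse counts on this transcript over 25 transcripts each. At 30 cycles the same barcodes had 12.5% and 12.1%, from 3 of 24 and 13 of 107 counts. At 35 cycles rank 691 had 0 of 18 counts on it and rank 586 had 12 of 131 (9.16%).

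Shallow and deep mouse cells had like shares of the leading transcripts. In the 197 shallowest cells ENSMUST00000103410 took 2.01% of mouse counts, in the next 197 cells 2.002% and in the 196 deepest 1.80%. ENSMUST00000082421 took 1.28%, 1.32% and 1.36%. ENSMUST00000082408 had a lower share the deeper the cells, with 0.916%, 0.659% and 0.534%. The human share of a cell's counts moved the other way, with medians of 2.33%, 2.83% and 3.95% in the same order.

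Human counts made up 15403 (4.08%) of all counts in the mouse cells. The median per cell was 3.13% (quartiles 1.53% and 5.02%), 46 cells had none, and the rule held the share to at most 10%. In human cells the mouse share had a median of 5.16%. The median human share was 3.85% in the 356 mouse cells without a larger neighbour. The mouse cells had counts on 6729 human transcripts, of which 6243 were named by the GENCODE annotation of hg38.

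How the human transcripts in mouse cells compared with those of human cells depended on which cells set the limit. For the 170 with at least 100 counts in human cells, the limit selects for high shares in human cells. Of these, 87 had a share of the human counts in mouse cells within 2-fold of that in human cells. Another 79 had a share 2-fold or more lower and 4 one 2-fold or more higher, with a median ratio of 0.516. For the 53 with at least 20 counts in mouse cells, the limit selects for high shares in mouse cells. Of the 53, 35 were within 2-fold, 1 was lower and 17 were higher, with a median ratio of 1.23. Summed over its transcripts, RPS14 of the small ribosomal subunit took 0.377% against 1.07% and RPL13A of the large subunit 0.461% against 1.01%. Among those with like shares, MT-CO1, a subunit of the last complex of the respiratory chain, had 99 counts or 0.643% of the human counts in mouse cells, against 0.671% in human cells. A transcript of TMSB4X, which encodes an actin-binding peptide, had 42 counts, with shares of 0.273% and 0.227%. For a transcript of RPS3A, a protein of the small ribosomal subunit, 36 counts gave 0.234% against 0.208%.

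Others had far higher shares in mouse cells. Of the 53, 12 had a share at least 5 times that in human cells. They held 1857 counts, or 12.1% of the human counts in mouse cells, against 0.515% in human cells. The 12 were picked for this contrast, so these sums only describe them. ENST00000445125 led with 422 counts (2.74%) in 137 of the 590 mouse cells (23.2%), against 88 counts (0.0764%) in human cells. It was followed by others without a gene symbol, among them ENST00000536684 with 278 counts in 141 mouse cells and ENST00000600213 with 265 in 140. Each of the 4 named transcripts among the 12 had fewer counts than any of those without a symbol. They were PURA, a nucleic acid-binding protein, with 55 counts against 1, and HOMER1, a scaffold protein of the synapse, with 24 against 0. The other 2 were of CD7, a surface protein of T cells, each with 23 against 12. The 55 counts of PURA lay in 11 mouse cells and the 24 of HOMER1 in 5. The 2 CD7 transcripts each had a count in 14 mouse cells, and whether they share molecules was not tested. MT-ND4, a subunit of complex I, had 141 counts and a share of 0.915% against 0.293%, below that limit. Without the 12 transcripts the human share of counts in mouse cells was 3.61%. Whether reads of mouse RNA were assigned to these human transcripts was not tested.

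The species of the mouse cells could be compared with libraries that had no part in choosing them. The study's text describes splitting the Drop-seq PCR product for further cycles, so these libraries may hold the same captured RNA. No value below 3 was stored at 30 cycles. With such values left out at 25 cycles, the median human share of a mouse cell was 0%, so the purity limit is not alike in both. Of the 590 barcodes, 258 were among the 500 deepest of the 30-cycle Drop-seq library, and 253 of them (98.1%, 95.5% to 99.4%) were mouse there, 5 were mixed and 0 were human. By a limit of 3 counts, 0 of 258 allows a human share of up to 1.16%, and the upper end of the exact interval is 1.42%. In the 35-cycle library 268 of 269 (99.6%, 97.9% to 99.99%) were mouse and 1 was mixed. Stored at any depth were 545 and 569 of the 590. Of the linked cells, 45 of 234 (19.2%) were among the cells at 30 cycles and 59 (25.2%) at 35, against 213 of 356 (59.8%) and 210 (58.99%) of the cells with no larger neighbour. The linked cells were also the shallower ones at 25 cycles, and the part of depth in this was not tested. Across the shared mouse cells, depth at 25 cycles went with depth at 30 cycles (Spearman's rho 0.74, n = 253, values below 3 left out).

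The share that a transcript took of a cell also went along with its share under the same barcode at 30 cycles. The lowest value stored in that library was 3, so values below 3 were left out on both sides. Over 253 cells ENSMUST00000103410 had a Pearson r of 0.60 and a Spearman's rho of 0.61, ENSMUST00000082421 0.57 and 0.72, and ENSMUST00000082409 0.60 and 0.69. ENSMUST00000103410 was detected in both libraries in 193 cells, at 25 cycles alone in 18 and at 30 cycles alone in 19. These points share barcodes and possibly the same captured RNA. They are a description with no replicate behind it.

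**Figure D5:**
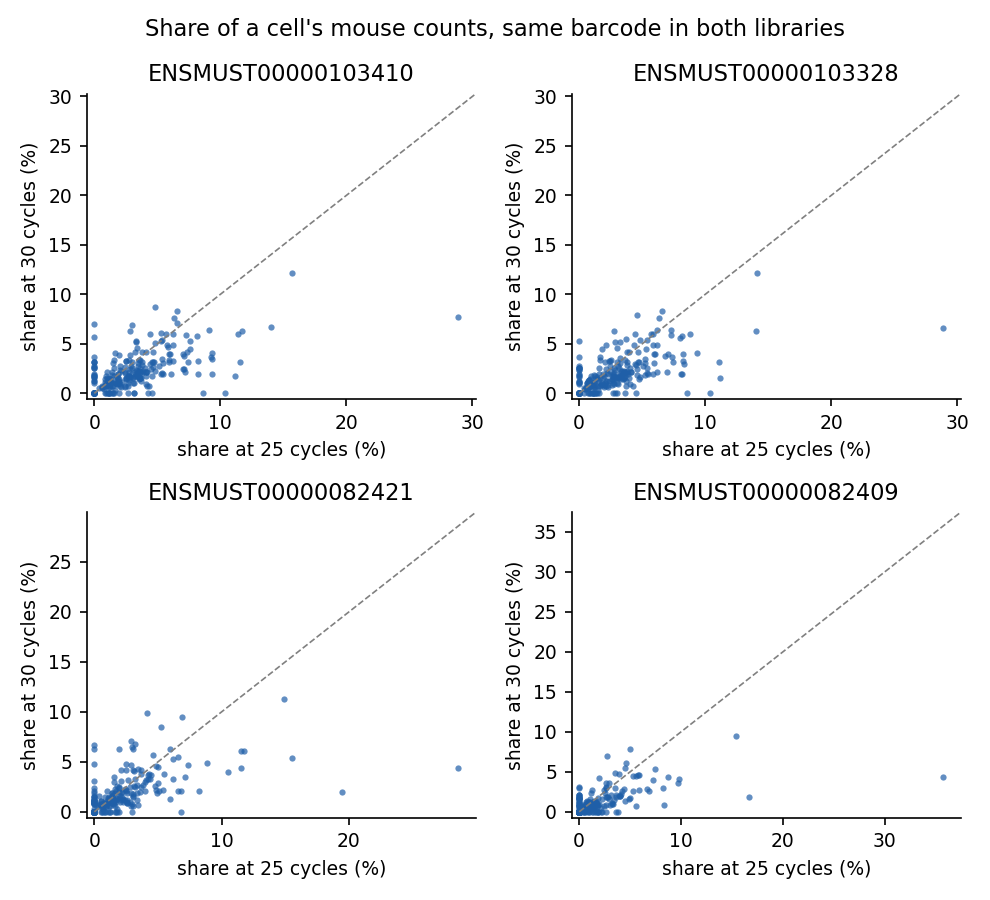
Percentage of a cell's mouse counts on 4 abundant transcripts at 25 cycles (horizontal) and under the same barcode at 30 cycles (vertical) for 253 mouse cells, with values below 3 left out of both libraries and the dashed line marking equality. Points spread along a rising band, and for ENSMUST00000103410 163 of 253 points lie below the line and 67 above it, where the summed shares were 2.41% at 25 cycles and 1.47% at 30 cycles.

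Summed over the 253 shared cells, most mouse transcripts took a similar share at both cycle numbers by a 2-fold rule. The 12 abundant transcripts correlated above all took a higher summed share at 25 cycles than at 30. ENSMUST00000103410 took 2.41% against 1.47%, and ENSMUST00000222106, the lowest of them at 25 cycles, 0.591% against 0.539%. They had been picked for abundance at 25 cycles. Of 510 transcripts with at least 100 counts over both libraries, 3 (0.588%) had a share at 25 cycles that was 2-fold or more above that at 30, and 12 (2.35%) one that was 2-fold or more below it, with a median log2 ratio of 0.02 and an SD over transcripts of 0.43. ENSMUST00000026222 had the largest ratio, with 102 counts against 28 and a log2 ratio of 1.53 (0.93 to 2.21). ENSMUST00000177513 had 127 against 47 and a log2 ratio of 1.11 (0.62 to 1.63). The lowest were ENSMUST00000223428, with 69 against 159 and a log2 ratio of -1.52 (-1.95 to -1.11), and ENSMUST00000209117, with 38 against 73 and -1.25 (-1.87 to -0.68). ENSMUST00000026222 was also among the transcripts with the most uneven counts between cells, with 42 of its 141 counts over all mouse cells in 1 cell.

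The 3 leading transcripts held ranks 1 to 3 in each Drop-seq library but lower in 10X. With values below 3 left out throughout, ENSMUST00000103410 took 2.72% of the mouse counts in mouse cells at 25 cycles, 1.52% at 30 cycles and 1.37% at 35 cycles, at rank 1 each time. In the 10X libraries it took 1.19% (1.07% to 1.33%) at 30 cycles and 1.83% (1.72% to 1.94%) at 35 cycles, with ranks of 17 and 8. ENSMUST00000103328 had ranks of 34 and 13 there and ENSMUST00000082421 of 18 and 17, so the order among the 3 differed at 30 cycles and was the same at 35 cycles. ENSMUST00000082409 took 1.48%, 0.868% and 0.823% in the Drop-seq libraries, but 0.0405% (11 counts) and 0.0104% (6 counts) in 10X. The leading 10X transcripts were ENSMUST00000020488 at 30 cycles, with 4.82%, and ENSMUST00000019649 at 35 cycles, with 6.40%. In the 25-cycle Drop-seq cells these took 0.232% and 0.146%, at ranks 56 and 94. Rpl4 (ENSMUST00000034966) took 0.219%, 0.233% and 0.204% over the Drop-seq libraries, and over the 10X libraries 0.2505% and 0.595%. Platform, depth and the smallest stored value differ together between these libraries and cannot be told apart.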

How the data were processed

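The authors deposited UMI counts as whole numbers for each barcode and Ensembl transcript, not normalized. Their methods describe minimap2 alignment of nanopore reads to transcripts of hg38 (human) and mm10 (mouse), and 2 ways of counting Drop-seq UMIs, monomer counting in UMI-tools and a set cover script for homotrimers. Which of these made this matrix is not given in the sources used here. The 5 matrices were read with scipy 1.17.1, pandas 2.3.3 and numpy 2.4.6 under Python 3.11.15. Species was taken from the identifier prefix. No doublet caller was run, and doublets of 1 species stayed in.

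The cell with more counts 1 mismatch away was its larger neighbour. Thinning drew 200 counts without replacement with a fixed seed. Expected counts were a cell's mouse counts times the transcript's overall share. Log2 ratios used counts per total with 0.5 counts added, and 2-fold was a rule of size. The scripts were tested on simulated data. Shares have exact Clopper-Pearson intervals and ratios exact conditional intervals, and PCR copies and stored minimum values mean that these cover counting error only.

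The mouse cells, transcripts and lists were chosen with earlier results of these data known. Named transcripts are the 3 markers, the 20 most abundant, the 10 most variable and the extreme ratios against 30 cycles, of which only some are printed. Rpl4, the human transcripts and the leading 10X transcripts were added after their values were seen. Gene lists by symbol were not used, for want of mouse names. Alternatives changed the cells, purity, smallest value, thinned depth, count minimum, scaling and library.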

Additional observations from a re-analysis of the deposited data

How the results depend on the processing

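No paired analysis was possible because each group had 1 library, and no replicate could be left out for the same reason. Of the values recomputed under other settings, 66 stayed within the limits set for calling them unchanged and 31 moved, and for the moves the cause was not tested. With the 500 deepest barcodes as cells, 63.8% were mouse, the median was 540 counts, the median human share 3.60% and the share on the 10 most abundant transcripts 9.98%. With all barcodes of at least 100 counts the median was 182 counts. A purity of 80% gave 62.9% mouse cells. A purity of 95% gave 43.9% mouse cells, a median human share of 2.32%, 1.43% on ENSMUST00000082421 and 10.0% on the 10 most abundant. With values below 3 left out, 53.8% of cells were mouse, with a median of 150.5 counts, a median human share of 0%, 2.49% on ENSMUST00000103410, 2.30% on ENSMUST00000103328, 1.76% on ENSMUST00000082421 and 13.6% on the 10 most abundant, and the variance ratios of the first 2 were 20.9 and 19.5. Thinning to 100 or 400 counts gave 78 or 218.5 transcripts, and leaving out the 10 most abundant gave 137. The transcripts with a variance ratio of at least 2 were 1082 of 1123 at a minimum of 50 counts, 246 of 249 at 200, and 297 of 307 without cells above the 95th percentile of depth. Agreement at 35 cycles was 99.6%.

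Further settings were chosen after seeing the data. Among cells with no larger neighbour 53.5% were mouse, and in these the median was 359.5 counts, the median human share 3.85%, the thinned number of transcripts 120 and the share on ENSMUST00000082421 1.28%, while 364 of 368 transcripts reached a ratio of 2. Without the deepest cell, and without cells of under 50 transcripts, none of the values recomputed moved beyond its limit. Scaling by the median of ratios left 15 transcripts at 2-fold. Depth limits what a single cell shows, since the median cell had 282.5 counts.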
